A study of Mus musculus with 12 samples.

Results

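The genes described here are 101 mouse genes whose symbols end in Rik and that were well counted in RNA sequencing of bone marrow-derived macrophages. A Rik symbol is a provisional name taken from a RIKEN cDNA clone, and it is kept until a gene has a better name. The members are all such symbols with a mean of at least 50 counts over the 12 libraries, except 3110062M04Rik, 1700034H15Rik and 9130019P16Rik, which were left out. They are 101 of 24552 symbols in the count table and 101 of 1817 symbols that end in Rik, of which 542 had any count. The members were chosen by their mean count over these libraries, so a high level is not a result about them. The members nearest the limit were 9430060I03Rik with a mean of 52.9 counts, 1700028K03Rik with 53.1 and E130215H24Rik with 54.4. Just outside it were 1700055D16Rik with 49 counts, 4930528A17Rik with 48.6 and 9530052E02Rik with 48.2.

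Bone marrow cells were cultured 6 days with 10 ng/ml M-CSF, the growth factor that turns marrow progenitors into macrophages. On day 6 all cells received DMSO vehicle or ISRIB at 50 nM for 1 h, and M1 cells were then given LPS at 10 ng/ml with IFN-γ at 25 ng/ml for 16 h while vehicle or ISRIB stayed present. ISRIB is a small molecule that blocks the integrated stress response by activating the initiation factor eIF2B. The 4 groups are M0 and M1 with vehicle and M0 and M1 with ISRIB. They hold 3 libraries each that the labels call biological replicates, with no strain, genotype or age in the labels and no statement of what M0 cells received during the stimulation. Library totals ran from 439976 to 514037 counts.

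Most of these genes are not known to make a protein. Of the 101 members, the GENCODE annotation of the GRCm38 genome listed 49 as antisense genes, 20 as processed transcripts, 12 as protein coding, 8 as long intergenic RNAs, 2 as long RNAs from a bidirectional promoter, 2 as yet to be tested experimentally and 1 as a transcribed processed pseudogene, and 7 had no record there. An antisense RNA is transcribed from the DNA strand opposite to another gene, so that stretches of its sequence are the reverse complement of that gene's RNA. Such RNAs can be independent transcripts or can share a promoter region with the gene they oppose, and a sequencing library must keep the strand of each RNA to tell both apart. The libraries were strand-specific, per the labels, but the strand setting used in counting is not given in the sources used here. For every member, reads from the member and reads from its opposite-strand neighbour therefore cannot be told apart from the counts alone, and each value below is what was counted under a symbol.

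The position of the members opposite other genes was the feature they shared most widely. An exon of another gene on the opposite strand overlapped an exon of 93 of the 101 members in GENCODE, and the other 8 lay opposite a gene in RefSeq. Among members matched by symbol, 98.9% had such an exon overlap, against 27.1% of all matched symbols ending in Rik and 24.1% of all matched symbols. The share was 88.4% among the 732 other symbols with a mean of at least 50 counts, so this position went with being well counted in this table and was not tested as a property of Rik genes. Of the first-listed neighbours, 86 of 93 were protein coding. In 33 pairs the starts of both genes faced each other and overlapped, in 30 the ends did, in 23 the member lay inside the neighbour and in 7 the neighbour lay inside the member. The overlap held coding bases of the neighbour in 71 pairs. A median of 17.5% of a member's exon bases was covered, with a range from 1.31% to 95.0%.

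Stretches where a member's exon runs opposite a neighbour's exon are printed here for 6 of the members described below, since reads from either RNA would fall on the same bases there. These 6 were those with a short stretch of this kind that held no annotated untranslated bases, and the longest such stretch of each is shown. Each is read 5′ to 3′ along the member's strand. Capitals mark bases that are also in an exon of the neighbour on the other strand, and lower case marks bases of the member's exon alone.
1700071M16Rik (opposite Pla2g7, GRCm38 chr17:43589397-43589549, minus strand): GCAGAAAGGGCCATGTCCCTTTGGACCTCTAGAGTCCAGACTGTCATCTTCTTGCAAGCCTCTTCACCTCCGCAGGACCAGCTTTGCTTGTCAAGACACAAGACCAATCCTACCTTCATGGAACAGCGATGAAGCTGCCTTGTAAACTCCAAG
B430010I23Rik (opposite Mtus1, GRCm38 chr8:41019503-41019621, plus strand): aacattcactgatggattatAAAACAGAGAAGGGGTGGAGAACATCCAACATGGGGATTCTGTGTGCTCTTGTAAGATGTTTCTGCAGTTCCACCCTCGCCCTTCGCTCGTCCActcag
2610027K06Rik (opposite Bcas3, GRCm38 chr11:85801789-85801943, minus strand): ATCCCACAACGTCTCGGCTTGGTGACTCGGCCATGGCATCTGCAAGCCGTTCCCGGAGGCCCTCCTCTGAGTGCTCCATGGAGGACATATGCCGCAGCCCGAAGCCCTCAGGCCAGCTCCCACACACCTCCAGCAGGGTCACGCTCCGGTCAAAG
4931431C16Rik (opposite Acox3, GRCm38 chr5:35588599-35588763, minus strand): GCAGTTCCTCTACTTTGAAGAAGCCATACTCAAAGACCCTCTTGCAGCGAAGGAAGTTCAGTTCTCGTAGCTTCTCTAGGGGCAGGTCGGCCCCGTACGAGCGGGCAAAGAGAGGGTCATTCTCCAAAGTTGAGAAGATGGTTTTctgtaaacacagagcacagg
4931403E22Rik (opposite Smarca2, GRCm38 chr19:26775920-26775973, minus strand): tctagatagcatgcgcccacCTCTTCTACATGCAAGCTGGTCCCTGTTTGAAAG
4930473A02Rik (opposite Ptpra, GRCm38 chr2:130544936-130545065, minus strand): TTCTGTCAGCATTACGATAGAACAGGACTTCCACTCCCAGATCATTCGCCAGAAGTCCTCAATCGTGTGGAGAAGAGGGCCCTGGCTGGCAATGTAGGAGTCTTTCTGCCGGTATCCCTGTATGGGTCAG
In 2610027K06Rik, 4931431C16Rik and 4931403E22Rik the stretches of 155, 145 and 34 bases are wholly opposite coding sequence of Bcas3, Acox3 and Smarca2. In 4930473A02Rik, 117 of 130 bases are opposite coding sequence of Ptpra. The stretches in 1700071M16Rik and B430010I23Rik, of 153 and 94 bases, are opposite exons of Pla2g7 and Mtus1 that hold no coding bases.

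**Figure D1:**
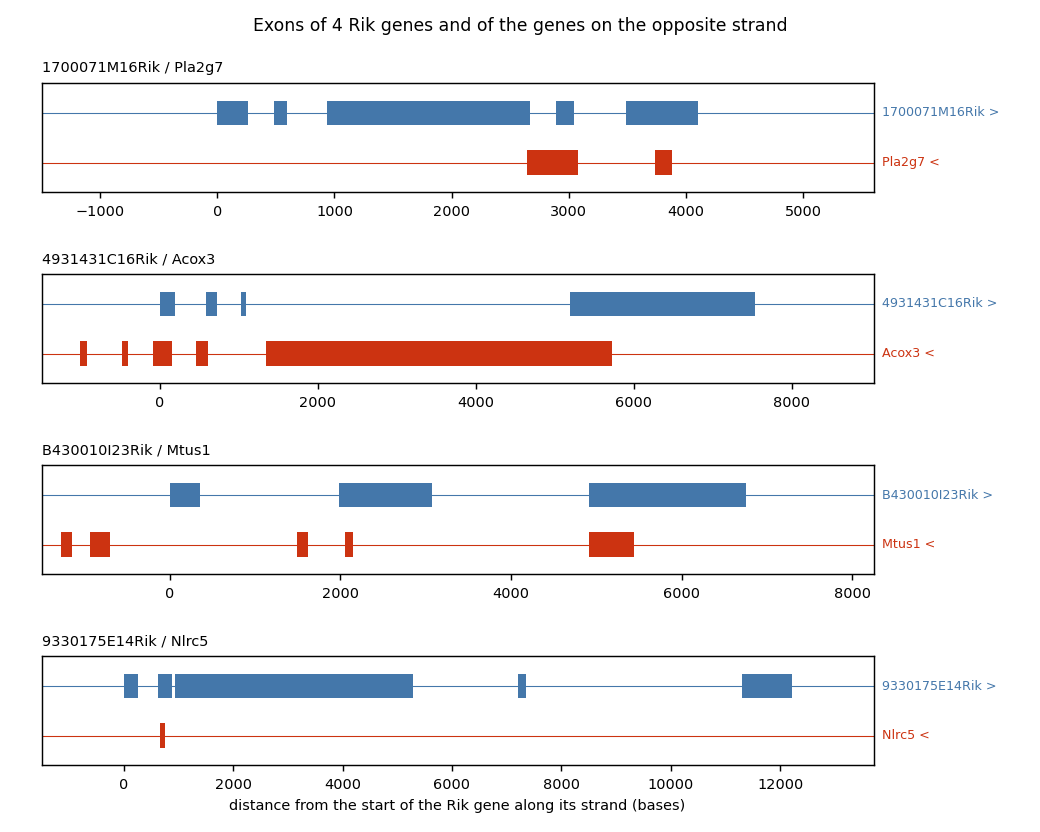
Exon maps of 4 Rik genes (blue, above) and the genes on the opposite strand (red, below), with the distance in bases from the start of the Rik gene along its own strand on the x axis. Boxes are exons merged over all GENCODE transcripts, arrowheads beside the names give the direction of transcription, and each window ends 1500 bases beyond the Rik gene. 1700071M16Rik and B430010I23Rik lie inside their neighbours, and 9330175E14Rik shares 78 exon bases with Nlrc5 near their facing starts.

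Counts were far more often assigned to the Rik gene than to the gene opposite. On a scale of mean counts per kb of exon, the member was higher in 91 of 92 pairs for which both had a value, with a median of 101.1 counts per kb for members and 0.701 for neighbours. The exception was 1700028K03Rik, with 6.67 counts per kb against 19.5 for Glmn, a gene of vascular development. Members were chosen for their counts, which fixes part of this difference, and no test was made. Of 98 different neighbours with a row in the table, 67 had a mean under 10 counts, and 39 of the 98 had enough counts to be tested. Over all 24552 symbols the median of the mean counts was 0, 10978 had any count and 2356 could be tested. Most first-listed neighbours were protein coding, so all symbols are an unlike class. Whether counts of the neighbours were low for genes of their kind was not tested. Among the 67 were genes with broad roles in cells, such as Ptbp1, a splicing regulator, at a mean of 5.17 counts opposite E130317F20Rik, and Smarca2, an ATPase of the SWI/SNF chromatin remodeller, at 1.08 counts opposite 4931403E22Rik.

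**Figure D2:**
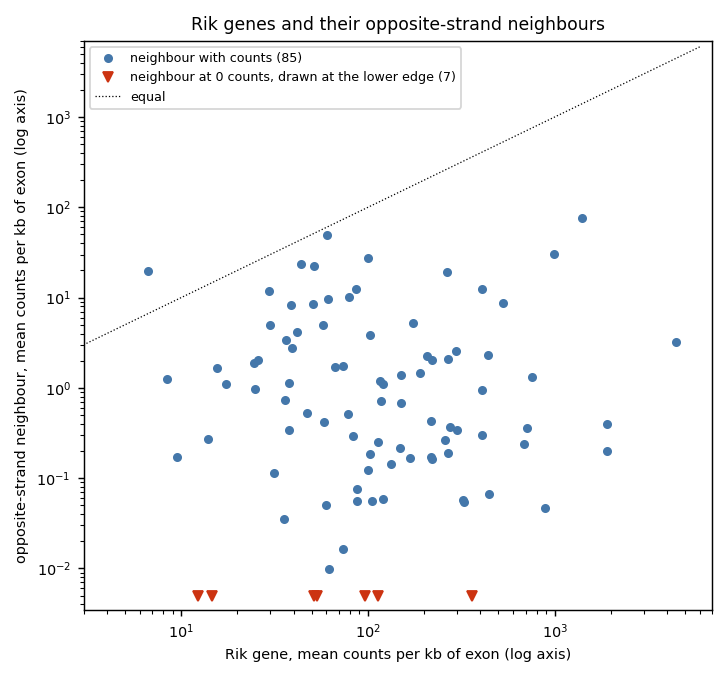
Mean counts per kb of exon over 12 libraries for each Rik gene (x axis, log scale) and its first opposite-strand neighbour (y axis, log scale), 1 point per pair and 92 pairs in all. Triangles are 7 neighbours with 0 counts, drawn at the lower edge, and the dotted line marks equal values. Of the 92 pairs, 91 lie below the line.

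As a group the members held 9.77% of all counts. With vehicle their share of a library was 10.5% ± 0.413 (SD, n = 3) in M0 and 8.96% ± 0.172 in M1, and with ISRIB it was 10.7% ± 0.417 and 8.79% ± 0.0947. All 6 M0 libraries lay above all 6 M1 libraries. These are shares of total counts, on which the median log2 fold change of all tested genes was itself -0.29 in vehicle and -0.30 with ISRIB. The share held by all symbols ending in Rik overlapped between the states, at 11.96% to 12.94% in M0 and 11.56% to 12.22% in M1. With the genes left out by the rule included, well-counted Rik symbols held 11.8% of all counts. How those left-out genes bear on the gap between the states was not tested. Part of the gap was 0610039K10Rik, the member with the most counts, and without it the shares were 9.29%, 8.50%, 9.38% and 8.30% in the same order.

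The 5 members with the most counts are given first. 0610039K10Rik has a single exon that starts opposite Serinc3, a membrane protein of the serine incorporator family. With vehicle it had 5379, 6649 and 6163 counts in M0 and 2143, 1894 and 2330 in M1, and with ISRIB 5141, 6587 and 7740 against 2258, 2366 and 2439. Every M1 library was below every M0 library, with a log2 fold change of -1.12 ± 0.11 (SE) in vehicle and -1.16 ± 0.11 with ISRIB, on counts scaled by TMM, a factor per library that corrects for a few abundant genes. Serinc3 itself had 2 to 24 counts per library and did not pass the test (log2 fold change 0.23 ± 0.71).

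4930473A02Rik lies opposite Ptpra, a receptor-type tyrosine phosphatase. It had 3740, 3778 and 3245 counts in M0 and 1953, 1915 and 1744 in M1 with vehicle, and 3179, 3489 and 3394 in M0 and 1834, 1951 and 1943 in M1 with ISRIB. It fell in both, with log2 fold changes of -0.53 ± 0.09 in vehicle and -0.52 ± 0.09 with ISRIB, while Ptpra had at most 7 counts in any library. 1110051M20Rik, listed as protein coding and opposite the COPI coat regulator Arfgap2, had 4740, 4178 and 3977 counts in M0 and 3636, 3401 and 3475 in M1 with vehicle, and 4333, 3906 and 4175 in M0 and 3902, 3672 and 3880 in M1 with ISRIB. Its scaled levels overlapped between groups and it passed in neither comparison, with log2 fold changes of 0.11 ± 0.10 and 0.18 ± 0.10.

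9130221H12Rik, opposite the kinase gene Gsk3a, had 2398, 2220 and 2052 counts in M0 and 2145, 2335 and 2204 in M1 with vehicle, and 2179, 2141 and 2101 in M0 and 2169, 2203 and 2293 in M1 with ISRIB. Unscaled counts hardly differed, and after TMM scaling its log2 fold changes were 0.41 ± 0.10 in vehicle and 0.35 ± 0.10 with ISRIB. Both passed, and neither did when libraries were scaled by their total counts alone (0.11 and 0.06). The call with ISRIB was also lost with no filter on low counts (0.29, edgeR adjusted p = 0.0693). 4930404N11Rik, opposite the lysosomal transporter gene Mfsd12, had 3969, 3752 and 3361 counts in M0 and 3019, 2523 and 2744 in M1 with vehicle, and 3973, 4586 and 4037 in M0 and 2667, 2966 and 2660 in M1 with ISRIB. Its log2 fold change was -0.02 ± 0.09 in vehicle, which did not pass, and -0.31 ± 0.09 with ISRIB, which did; with total counts alone it was -0.32 in vehicle and passed.

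The choice of scaling matters for all values of M1 against M0. TMM made 1 count worth 1.79 to 2.08 CPM (library-scaled counts) in M0 libraries and 2.24 to 2.57 in M1 libraries. With total counts alone the median log2 fold change of all tested genes was lower by 0.30 in vehicle and 0.29 with ISRIB, and small changes near 0 should be read against that shift.

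The first comparison asked which members change when macrophages are polarized with LPS and IFN-γ in vehicle. Of the 101 members, all of which passed the filter on low counts, 55 passed, 25 higher and 30 lower in M1. The threshold was an adjusted p of 0.05 (edgeR, quasi-likelihood F test, Benjamini-Hochberg over 2356 genes). The background was 44.8% of all tested genes and 60.9% of the 732 other genes counted at that depth, against 54.5% of the members. By direction, 24.3% of tested genes were higher and 20.5% lower, and 30.1% and 30.9% of the 732 others, against 24.8% and 29.7% of members. The members' share thus lay between that of all genes and that of genes counted as well, and it was no result about Rik genes. With total counts in place of TMM 63 members passed, 19 higher and 44 lower, and no member called under TMM changed sign. The share was 62.4% of members (18.8% higher and 43.6% lower), against 47.4% of all tested genes (19.6% and 27.8%) and 66.8% of the 732 others (23.4% and 43.4%). The median log2 fold change was -0.01 over the members and 0.01 over all tested genes, and 31 of the 55 changed by at least 2-fold (56.4%, against 80.2% of all called genes and 60.1% of called genes among the 732 others).

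The rule itself bears on 17 of the members, whose mean reached 50 counts in the libraries of 1 state alone, 12 in M0 and 5 in M1. Such genes entered through the state in which they were high, and 12 of them were called in vehicle. Among the other 84 members 43 passed in vehicle (51.2%), 21 higher and 22 lower, and 44 passed with ISRIB. Of the 16 members with the largest changes, described next, 9330175E14Rik, A930015D03Rik and 4931440P22Rik entered through M1, and 2610027K06Rik, 4931403E22Rik, 1700018L02Rik and 4931402G19Rik through M0.

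The 8 largest increases were in members opposite Nlrc5, Pla2g7, Rab11fip1, H2-T22, Tiparp, Apobec3, Kif3c and Zkscan17. 9330175E14Rik, a long intergenic RNA on chromosome 8, starts opposite Nlrc5, the interferon-induced activator of MHC class I genes. It had 17, 10 and 4 counts in M0 and 132, 142 and 158 in M1 with vehicle, and 10, 7 and 16 in M0 and 149, 220 and 126 in M1 with ISRIB. The groups did not overlap, and the level rose from 19.2 ± 11.7 CPM (SD, n = 3) to 358.4 ± 25.3 in vehicle, a log2 fold change of 4.19 ± 0.34. It reached the limit of 50 counts through its M1 libraries alone, so its difference is given as a description. Nlrc5 had 0 counts in all 6 M0 libraries and 0 to 10 in M1.

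1700071M16Rik lies inside Pla2g7, which encodes platelet-activating factor acetylhydrolase, a secreted phospholipase of macrophages. It had 388, 263 and 297 counts in M0 and 1851, 1595 and 2579 in M1 with vehicle, and 387, 262 and 205 in M0 and 2073, 1992 and 2190 in M1 with ISRIB. M1 libraries were several times above every M0 library in both treatments, with log2 fold changes of 3.06 ± 0.20 and 3.15 ± 0.20 (edgeR adjusted p = 1.53e-12 and 1.04e-12). Pla2g7 had 0 to 2 counts in M0 and 0 to 16 in M1.

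4933416M07Rik runs opposite Rab11fip1, an effector of Rab11 in endosome recycling, and 72.4% of its exon bases are opposite exons of that gene. It had 171, 168 and 142 counts in M0 and 977, 982 and 1052 in M1 with vehicle, and 155, 118 and 154 in M0 and 900, 1005 and 824 in M1 with ISRIB. The spread within each group was small beside the change, with a log2 fold change of 3.05 ± 0.14 in vehicle and 2.97 ± 0.14 with ISRIB (edgeR adjusted p = 1.57e-15 and 3.43e-15). Rab11fip1 had 0 counts in 11 of 12 libraries.

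A930015D03Rik overlaps H2-T22, a non-classical MHC class I gene, at their ends, and 90.3% of its exon bases are opposite H2-T22 exons. It had 18, 18 and 9 counts in M0 and 96, 81 and 71 in M1 with vehicle, and 30, 24 and 19 in M0 and 117, 74 and 125 in M1 with ISRIB. Here both genes of the pair were counted and both rose: H2-T22 had 32 to 36 counts in vehicle M0 and 115 to 170 in vehicle M1. The log2 fold change in vehicle was 2.86 ± 0.34 for the member, which also reached 50 counts in M1 alone, and 2.37 ± 0.28 for H2-T22.

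4931440P22Rik, listed as a transcribed pseudogene, lies opposite Tiparp, an ADP-ribosyltransferase induced by the aryl hydrocarbon receptor. It had 22, 42 and 25 counts in M0 and 132, 96 and 156 in M1 with vehicle, and 17, 89 and 44 in M0 and 105, 112 and 90 in M1 with ISRIB. ISRIB M0 was the most spread group, with replicate 2 nearly as high as the M1 libraries, and the log2 fold change was 2.51 ± 0.36 in vehicle and 1.36 ± 0.34 with ISRIB. The difference between those did not pass (interaction -1.15 ± 0.49, edgeR adjusted p = 0.602). Without replicate 2 of ISRIB M0 the change with ISRIB was 2.02.

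D730005E14Rik shares its locus with Apobec3, a cytidine deaminase that restricts retroviruses. GENCODE puts it on the same strand as Apobec3, and RefSeq on the opposite one. It had 271, 269 and 278 counts in M0 and 968, 864 and 1034 in M1 with vehicle, and 213, 248 and 308 in M0 and 983, 1071 and 1043 in M1 with ISRIB. The change was 2.21 ± 0.13 in vehicle and 2.31 ± 0.13 with ISRIB on the log2 scale. Apobec3 rose too, from 7 to 14 counts in vehicle M0 to 69 to 104 in vehicle M1 (log2 fold change 3.38 ± 0.35).

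1110002L01Rik lies opposite Kif3c, a kinesin motor subunit, and moved against it in vehicle. The member had 106, 90 and 119 counts in M0 and 242, 286 and 252 in M1 with vehicle, and 93, 101 and 106 in M0 and 244, 268 and 256 in M1 with ISRIB, with a log2 fold change of 1.70 ± 0.18 in vehicle and 1.65 ± 0.18 with ISRIB. Kif3c had 191 to 320 counts in vehicle M0 and 94 to 156 in vehicle M1 and fell, with a log2 fold change of -0.62 ± 0.21. With ISRIB Kif3c did not pass (-0.14 ± 0.21). 4933439C10Rik, opposite the zinc finger gene Zkscan17, had 105, 136 and 132 counts in M0 and 276, 306 and 283 in M1 with vehicle, and 138, 178 and 145 in M0 and 221, 308 and 308 in M1 with ISRIB. Its log2 fold change was 1.61 ± 0.17 in vehicle and 1.15 ± 0.17 with ISRIB, and the groups did not overlap in either treatment.

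**Figure D3:**
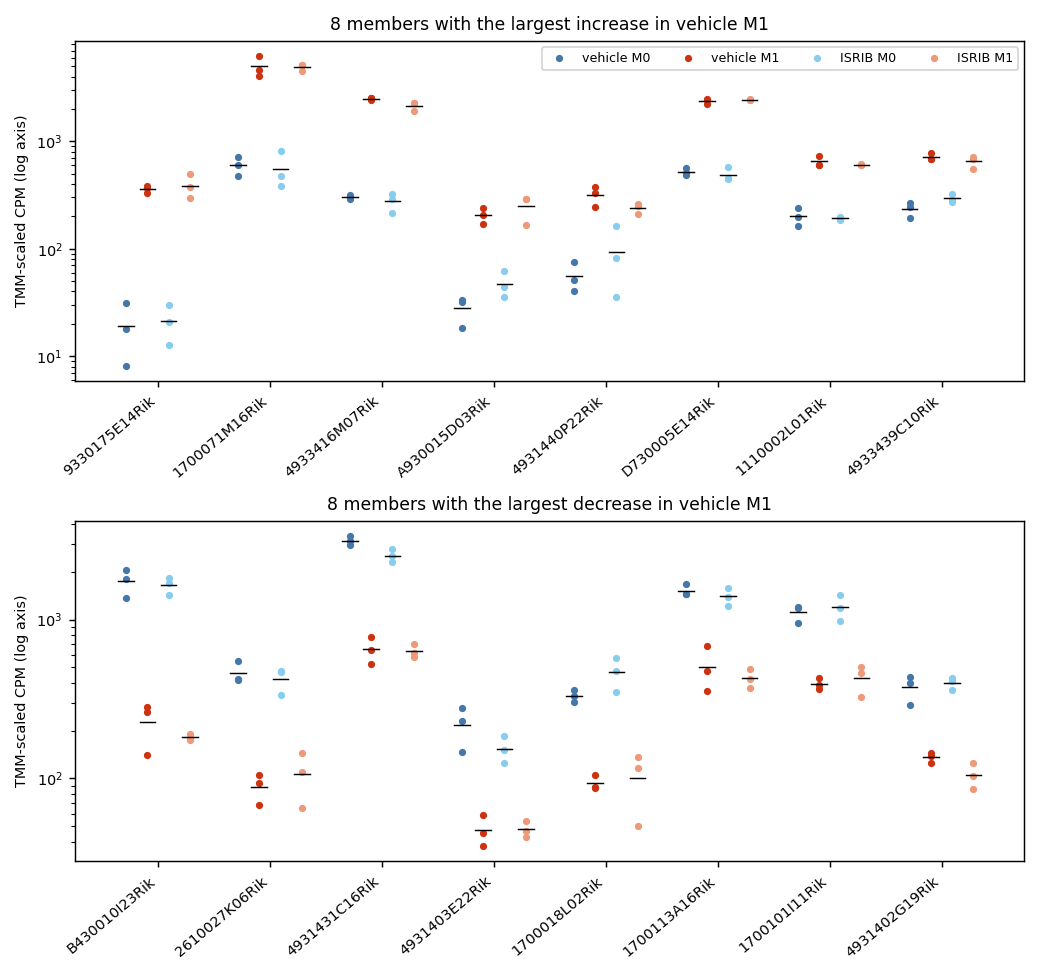
Scaled level (TMM-scaled CPM, log axis) in each of 12 libraries for the 8 members with the largest increase (upper panel) and the 8 with the largest decrease (lower panel) among members called in vehicle. Points are libraries coloured by group, 3 per group, and bars are group means. In both treatments the M1 libraries lie on one side of the M0 libraries for 9330175E14Rik, 1700071M16Rik and B430010I23Rik, while 4931440P22Rik has 1 ISRIB M0 library close to M1.

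The 8 largest decreases were in members opposite Mtus1, Bcas3, Acox3, Smarca2, Ak3, Mef2d, Gabarapl1 and Ganc. B430010I23Rik sits inside Mtus1, a gene for a microtubule-associated protein. It had 740, 1006 and 1010 counts in M0 and 112, 55 and 109 in M1 with vehicle, and 690, 1004 and 911 in M0 and 70, 85 and 77 in M1 with ISRIB. It fell from 1739 ± 342 CPM to 228.0 ± 75.6 in vehicle, a log2 fold change of -2.93 ± 0.19 (edgeR adjusted p = 1.78e-12). Mtus1 had 10 to 29 counts in vehicle M0 and 4 to 8 in M1, with a log2 fold change of -1.58 ± 0.70 that did not pass in vehicle and -1.72 ± 0.70 that passed with ISRIB (edgeR adjusted p = 0.0705 and 0.0465).

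2610027K06Rik runs opposite Bcas3, a cytoskeletal protein, which had 0 counts in all 12 libraries. The member had 224, 237 and 270 counts in M0 and 27, 41 and 39 in M1 with vehicle, and 161, 259 and 249 in M0 and 26, 49 and 62 in M1 with ISRIB, with log2 fold changes of -2.37 ± 0.26 and -1.98 ± 0.25. 4931431C16Rik is opposite Acox3, an acyl-CoA oxidase of peroxisomes, which had at most 6 counts. It had 1601, 1732 and 1648 counts in M0 and 258, 204 and 325 in M1 with vehicle, and 1109, 1371 and 1488 in M0 and 234, 311 and 264 in M1 with ISRIB. It fell by 2.27 ± 0.14 on the log2 scale in vehicle and by 2.00 ± 0.13 with ISRIB, and within M0 all 3 ISRIB libraries were below all 3 vehicle libraries.

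4931403E22Rik, opposite Smarca2, had 79, 129 and 136 counts in M0 and 15, 23 and 19 in M1 with vehicle, and 73, 102 and 67 in M0 and 17, 24 and 20 in M1 with ISRIB. Its groups did not overlap, with log2 fold changes of -2.19 ± 0.32 and -1.68 ± 0.32. 1700018L02Rik, opposite the mitochondrial adenylate kinase gene Ak3, had 163, 184 and 179 counts in M0 and 35, 41 and 37 in M1 with vehicle, and 169, 317 and 253 in M0 and 20, 52 and 58 in M1 with ISRIB. Member and neighbour fell together, with log2 fold changes in vehicle of -1.82 ± 0.27 for the member and -2.35 ± 0.59 for Ak3, which went from 29 to 68 counts to 1 to 11.

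1700113A16Rik, opposite the transcription factor gene Mef2d, had 899, 807 and 719 counts in M0 and 142, 264 and 196 in M1 with vehicle, and 589, 868 and 745 in M0 and 148, 188 and 208 in M1 with ISRIB. Its log2 fold changes were -1.60 ± 0.17 and -1.71 ± 0.17, and that of Mef2d, with 7 to 26 counts in vehicle, was -1.21 ± 0.57 and did not pass. 1700101I11Rik, opposite the autophagy gene Gabarapl1, had 511, 669 and 584 counts in M0 and 170, 142 and 161 in M1 with vehicle, and 569, 787 and 522 in M0 and 202, 205 and 140 in M1 with ISRIB, with log2 fold changes of -1.50 ± 0.17 and -1.48 ± 0.17. Both members were lower in every M1 library than in any M0 library.

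4931402G19Rik has no GENCODE record and lies opposite Ganc, a neutral alpha-glucosidase gene, in RefSeq. It had 234, 161 and 198 counts in M0 and 50, 54 and 60 in M1 with vehicle, and 206, 198 and 220 in M0 and 50, 38 and 44 in M1 with ISRIB, and its log2 fold changes were -1.46 ± 0.22 and -1.94 ± 0.22. Over both treatments its mean reached 50 counts in M0 alone, so its fall is given as a description. Ganc was counted at a similar depth, with 139 to 203 counts in vehicle M0 and 115 to 161 in vehicle M1, and did not pass (log2 fold change 0.08 ± 0.19).

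Among 11 further members that rose in both treatments, E230013L22Rik had the most counts and the largest change. It shares a promoter region with Rab20, a small GTPase of phagosomes and endosomes, and had 1466, 1233 and 1151 counts in vehicle M0 and 2401, 2599 and 2464 in vehicle M1 (log2 fold change 1.36 ± 0.11). Rab20 moved the other way, from 53 to 70 counts to 17 to 27, with -0.97 ± 0.34. The remaining 10 were 4933408J17Rik, 4921511I17Rik, 1700110K17Rik, 4732471J01Rik, 1700001G11Rik, 9530082P21Rik, C920021L13Rik, 1700034P13Rik, 4930549G23Rik and A230072C01Rik, with log2 fold changes in vehicle from 1.32 down to 0.70. 4732471J01Rik, with 582 to 786 counts in vehicle M0 and 1122 to 1221 in vehicle M1, is opposite Lipe, the hormone-sensitive lipase gene.

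Among 15 further members that fell in both, 3110002H16Rik and D330041H03Rik lay opposite lipid transport genes. 3110002H16Rik, a protein-coding gene now called Rmc1, had 815, 672 and 609 counts in vehicle M0 and 273, 278 and 223 in vehicle M1, a log2 fold change of -1.03 ± 0.15. Its neighbour Npc1, the lysosomal cholesterol exporter, rose by 1.18 ± 0.22 on the same scale, from 62 to 107 counts to 133 to 170. D330041H03Rik had 1567, 1572 and 1478 counts in vehicle M0 and 559, 520 and 549 in vehicle M1 (log2 fold change -1.10 ± 0.11). The lipid transporter gene Abca3 opposite it fell from 34 to 49 counts to 2 to 6 (-3.20 ± 0.79).

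Of the remaining 13 that fell, A430088P11Rik changed most, with 59, 112 and 86 counts in vehicle M0 and 10, 32 and 34 in vehicle M1. On the log2 scale it differed by -1.35 in vehicle and -2.03 with ISRIB. E230016M11Rik, opposite the growth arrest gene Gadd45a, had 142 to 237 counts in vehicle M0 and 69 to 110 in vehicle M1, and A230020J21Rik, opposite Flvcr1, a transporter gene of the plasma membrane, had 366 to 588 and 137 to 267. The others were A230056P14Rik, 9430091E24Rik, 9930014A18Rik, 4930512B01Rik, 1700094J05Rik, 4930562F07Rik, 1700007J10Rik, 9530027J09Rik, 1600012H06Rik and A430057M04Rik, with log2 fold changes in vehicle from -1.13 to -0.51. A430088P11Rik, A230056P14Rik, 4930512B01Rik and 4930562F07Rik entered through M0 alone, so their falls are given as a description.

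Where the neighbour had enough counts to be tested, it did not always move with the member. Of 40 pairs with a tested neighbour, which hold 39 different neighbours because Acin1 lies opposite 2 members, the neighbour passed in vehicle in 15. Among all tested genes 44.8% passed. Pairs of unrelated genes were not counted in either treatment, so the counts of pairs given here are no result about pairs. In 10 pairs both genes passed in vehicle. In 6 of these 10 they moved the same way: D730005E14Rik with Apobec3, A930015D03Rik with H2-T22, 1700018L02Rik with Ak3, D330041H03Rik with Abca3, 6430562O15Rik with Mrps27 and D130020L05Rik with Ppp4r3a. In 4 they moved apart: 3110002H16Rik and Npc1, 9130221H12Rik and Gsk3a, E230013L22Rik and Rab20, and 1110002L01Rik and Kif3c. Gsk3a had 272 to 344 counts in vehicle M0 and 117 to 140 in vehicle M1, a log2 fold change of -0.83 ± 0.17, although the rise of 9130221H12Rik held under TMM and was not called with total counts. In 14 pairs the member alone passed and in 5 the neighbour alone. The widest gap was at 4930599N23Rik, which had 493, 576 and 567 counts in vehicle M0 and 432, 259 and 341 in vehicle M1 (log2 fold change -0.27 ± 0.15, not called). Kdm7a, the histone demethylase gene opposite it, went from 4 to 12 counts to 149 to 189, with 4.84 ± 0.35. With ISRIB present, both genes were called in 10 pairs, 7 of them in the same direction, and 7 of the 10 were among those called in vehicle. The pairs with Kif3c, Ppp4r3a and Mrps27 were no longer among them, and those of B430010I23Rik with Mtus1, 9430091E24Rik with Pdpr and E230016M11Rik with Gadd45a were added. Whether reads of one gene in a pair were counted for the other was not tested.

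The 4 members nearest to 0 were picked by their change in vehicle and included well-counted genes. E130317F20Rik, opposite Ptbp1, had 442, 509 and 517 counts in M0 and 397, 311 and 397 in M1 with vehicle, and 433, 447 and 523 in M0 and 406, 442 and 385 in M1 with ISRIB, at 925.8 ± 115.1 CPM in vehicle M0 and 915.9 ± 102.9 in vehicle M1. 2310068J16Rik, opposite the RNA-binding protein gene Larp4, had 104, 147 and 137 counts in M0 and 106, 74 and 113 in M1 with vehicle, and 183, 130 and 158 in M0 and 138, 138 and 101 in M1 with ISRIB. For both the groups overlapped after scaling.

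0610040F04Rik, opposite the transcription factor gene Bhlhe40, had 72, 116 and 121 counts in M0 and 69, 81 and 85 in M1 with vehicle, and 70, 75 and 56 in M0 and 48, 77 and 50 in M1 with ISRIB. 4933428G20Rik, opposite Arhgap23, which encodes a GTPase-activating protein, had 64, 120 and 104 counts in M0 and 35, 72 and 114 in M1 with vehicle, and 70, 155 and 104 in M0 and 77, 60 and 49 in M1 with ISRIB. The log2 fold changes of these 4 members in vehicle were within 0.02 of 0, with standard errors of 0.14 for E130317F20Rik, 0.23 for 2310068J16Rik, 0.26 for 0610040F04Rik and 0.33 for 4933428G20Rik, so a small change in either direction was not detectable. With ISRIB they were 0.11 ± 0.13 for E130317F20Rik, -0.03 ± 0.22 for 2310068J16Rik, 0.09 ± 0.27 for 0610040F04Rik and -0.50 ± 0.33 for 4933428G20Rik, and none passed. Together 34 members passed in neither treatment.

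The second comparison made the same contrast in cells given ISRIB, which shares no library with the first. There 58 members passed, 23 higher and 35 lower, against 44.8% of all tested genes (23.9% higher and 20.9% lower) and 60.5% of the other well-counted genes (30.6% higher and 29.9% lower). With total counts in place of TMM, 17 were higher and 45 lower (16.8% and 44.6%). There 47.0% of all tested genes passed (18.5% higher and 28.5% lower), and 64.8% of the other well-counted genes (21.9% and 42.9%). In both treatments 46 members passed, 20 higher and 26 lower, all in the same direction, and 87 of 101 had the same sign. As shares these were 45.5% and 86.1% of members, against 35.5% and 85.3% of all tested genes and 52.5% and 91.3% of the other well-counted genes, so the members again lay between or near those classes. The median absolute difference between the 2 log2 fold changes was 0.160.

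**Figure D4:**
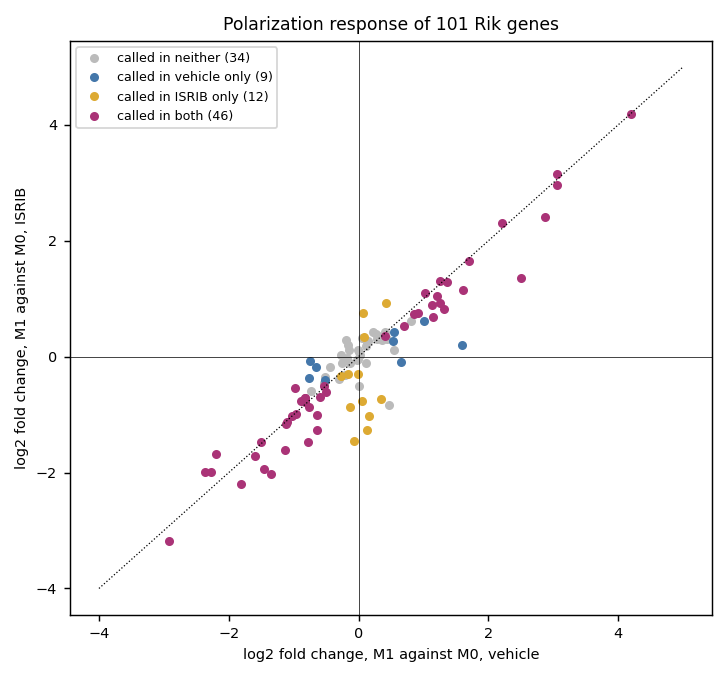
Fitted log2 fold change of M1 against M0 for each of 101 Rik genes in vehicle (x axis) and with ISRIB (y axis), coloured by the comparisons in which edgeR called the gene, with the dotted line at equal values. The 46 genes called in both (purple) lie along the line, and the 12 called with ISRIB alone (yellow) include several near 0 on the x axis and below 0 on the y axis.

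In 21 members the call was made in 1 treatment alone, and for none of them did the difference between treatments pass. In vehicle alone 9 passed. 4930539J05Rik, opposite the ubiquitin-conjugating enzyme gene Ube2d3, had 84, 184 and 158 counts in M0 and 220, 321 and 439 in M1. D130020L05Rik, opposite the phosphatase subunit gene Ppp4r3a, had 261, 462 and 348 against 390, 335 and 552, and 6430562O15Rik, opposite the mitochondrial ribosome gene Mrps27, had 283, 223 and 230 against 299, 264 and 239. Both groups overlapped in counts for these 2 members, and their calls in vehicle rest on the scaling as well as the counts.

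0610038B21Rik had 242, 206 and 188 counts in vehicle M0 and 247, 186 and 270 in vehicle M1. 4932416H05Rik had 29, 70 and 33 against 57, 78 and 63, and both members were called higher. 4932416H05Rik entered through M1 alone, so its rise is given as a description. 4930414N06Rik, opposite the DNA repair gene Slf2, had 252, 290 and 244 counts in M0 and 131, 108 and 115 in M1. 1700123O20Rik, opposite the splicing gene Acin1, had 207, 268 and 258 against 136, 106 and 112, 1500004A13Rik had 160, 171 and 165 against 56, 77 and 89, and 1700086O06Rik, opposite the mitochondrial stress gene Dele1, had 142, 137 and 142 against 87, 62 and 75. These 4 were called lower, with vehicle M1 below vehicle M0 in every library.

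With ISRIB alone 12 passed. The 3 called higher were 4930455C13Rik, opposite the ribosome rescue gene Hbs1l, with 280, 318 and 320 counts in ISRIB M0 and 313, 312 and 319 in ISRIB M1, 6230400D17Rik, opposite the COPII coat gene Sec24c, with 103, 139 and 95 against 179, 196 and 145, and 9330136K24Rik, with 52, 53 and 51 against 78, 72 and 65. The rise of 4930455C13Rik rests on the scaling, since its counts overlapped.

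The 9 called lower included 4930404N11Rik, given above, and A230103J11Rik, opposite the nuclear import gene Tnpo2, with 656, 864 and 802 counts in ISRIB M0 and 531, 460 and 541 in ISRIB M1. 4930592A05Rik had 481, 583 and 576 against 361, 326 and 362, D330050I16Rik had 153, 376 and 185 against 107, 149 and 91, and 1700028K03Rik had 60, 88 and 81 against 28, 44 and 38. A630072M18Rik had 76, 176 and 156 counts in ISRIB M0 and 44, 105 and 33 in ISRIB M1, and 4930526I15Rik had 70, 162 and 128 against 15, 38 and 53. The last 2 were 2610206C17Rik and 4930581F22Rik. Of these 9, 4930526I15Rik, 1700028K03Rik and 4930581F22Rik entered through M0 alone, so their falls are given as a description. In all 9 members called lower, replicate 2 of ISRIB M0 had the highest unscaled count of its group. That library also had the largest total of its group, 495164 counts against 459336 and 490136. After TMM scaling a count there was worth 1.82 CPM, against 2.08 and 1.87 in the same order, so scaled levels can rank differently. The share of all tested genes with their highest count in that library was not computed, so this is no result about these members.

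The third comparison asked whether ISRIB changed any member in unpolarized cells. No member passed, and no tested gene did (0% of 2356, and 0% of the 732 others). At an unadjusted p under 0.05 there were 15 members, 10 higher and 5 lower with ISRIB, which is 14.9% of members against 6.07% of all tested genes and 5.46% of the other well-counted genes. The DESeq2 Wald test gave 13 at that limit and called none after adjustment. Members were chosen by a mean count that includes the ISRIB M0 libraries, so the share of 14.9% is no result about them. In all 10 that were higher, replicate 2 of ISRIB M0 was the highest library of its group after scaling. The same share over all tested genes was not computed. Without that library 7 members had an unadjusted p under 0.05, 4 of them higher, against 5.08% of all tested genes. With any other single library left out there were 12 to 19 such members. The part played by 1 library was not tested. The scaled levels of the 2 groups did not overlap in 6 of the 15 (40%), against 58.7% of all tested genes and 65% of the other well-counted genes at the same limit.

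4930581F22Rik, opposite the sialyltransferase gene St3gal4, had the smallest p. It had 33, 40 and 53 counts in M0 and 26, 35 and 44 in M1 with vehicle, and 75, 137 and 122 in M0 and 16, 65 and 32 in M1 with ISRIB. ISRIB M0 stood above the other 3 groups, at 211.2 ± 49.0 CPM against 80.0 ± 24.3 in vehicle M0, a log2 fold change of 1.40 ± 0.35 (unadjusted p = 0.000528 in edgeR's model across all genes, edgeR adjusted p = 0.294). The mean count of 4930581F22Rik reached the limit of the rule through the ISRIB M0 libraries, which are part of this contrast. Its difference is therefore given as a description. 4930539J05Rik came next, with 190, 349 and 270 counts in ISRIB M0 and 226, 350 and 176 in ISRIB M1 beside the vehicle counts given above. Its log2 fold change in M0 was 0.93 ± 0.26 (edgeR adjusted p = 0.294).

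2610206C17Rik, opposite the zinc finger gene Zfand6, had 137, 231 and 180 counts in M0 and 128, 147 and 190 in M1 with vehicle, and 189, 480 and 304 in M0 and 95, 188 and 104 in M1 with ISRIB. Replicate 2 of ISRIB M0 was far above the other libraries, and the groups overlapped. The log2 fold change in M0 was 0.83 ± 0.25 (edgeR adjusted p = 0.339). With no filter on low counts these 3 members passed, and without replicate 1 of ISRIB M0 2610206C17Rik passed alone (edgeR adjusted p = 0.0488).

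In polarized cells ISRIB changed no member past the threshold either. No member and no tested gene was called (0%), and 3 members had an unadjusted p under 0.05, against 5.69% of all tested genes and 5.87% of the other well-counted genes; the DESeq2 Wald test also gave 3 and called none. Smallest was 4930414N06Rik, with 194, 263 and 208 counts in ISRIB M0 and 183, 156 and 173 in ISRIB M1, where all ISRIB M1 libraries were above all vehicle M1 libraries. Its log2 fold change for ISRIB in M1 was 0.46 ± 0.17 (edgeR adjusted p = 0.806). A530088E08Rik, opposite the Ras regulator gene Rasal3, had 196, 170 and 196 counts in M0 and 68, 57 and 92 in M1 with vehicle, and 153, 190 and 265 in M0 and 110, 123 and 106 in M1 with ISRIB. Its log2 fold change for ISRIB in M1 was 0.57 ± 0.22 (edgeR adjusted p = 0.806), again with no overlap of the groups.

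The last comparison tested an interaction, the effect of ISRIB in M1 less that in M0. No member and no tested gene passed (0%). At an unadjusted p under 0.05 there were 11 members, against 7.09% of all tested genes and 6.69% of the other well-counted genes, 10 of them with a lower effect in M1, and 8 of the 11 were also among the 15 above, with which they share the M0 libraries. The DESeq2 Wald test gave 10 and called none. Here too the members were chosen by a mean over the libraries compared, so their number is no result about them. 4930539J05Rik had the largest interaction of the list at -1.40 ± 0.36 on the log2 scale (edgeR adjusted p = 0.211): it rose 1.60 ± 0.26 from M0 to M1 in vehicle and had a difference of 0.20 ± 0.25 with ISRIB. For 2610206C17Rik the interaction was -1.19 ± 0.36 (edgeR adjusted p = 0.309). With the replicate number as a block 4930539J05Rik passed (edgeR adjusted p = 0.0449). With no filter on low counts 4930539J05Rik (-1.37, edgeR adjusted p = 0.000337) and 2610206C17Rik (-1.16, edgeR adjusted p = 0.0413) passed.

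**Figure D5:**
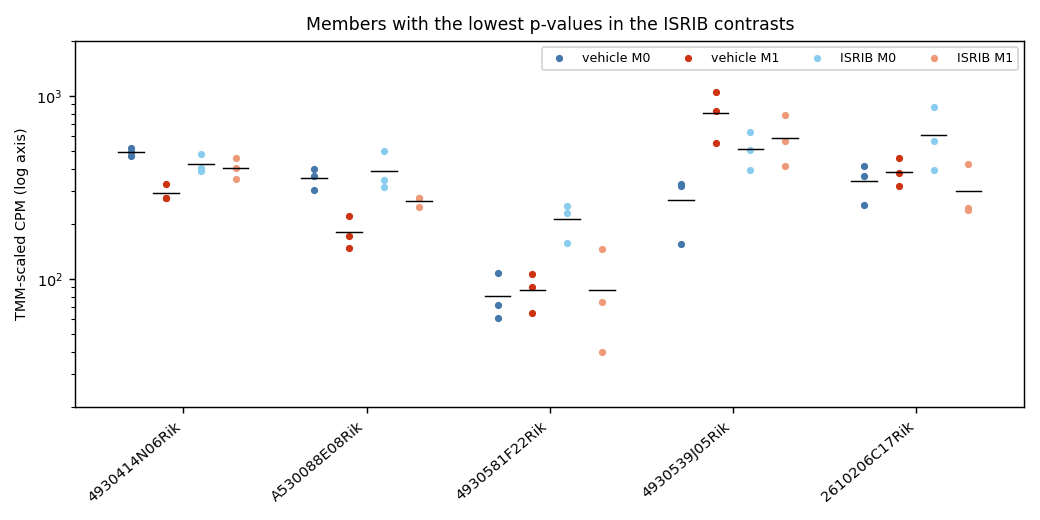
Scaled level (TMM-scaled CPM, log axis) in each of 12 libraries for the members with the smallest p in the 3 ISRIB contrasts, with points for libraries coloured by group, 3 per group, and bars for group means. ISRIB M0 (light blue) is above vehicle M0 for 4930581F22Rik and 4930539J05Rik, and 1 ISRIB M0 library of 2610206C17Rik stands above all others.

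Marker genes were checked beside these results. All 10 macrophage markers had counts, 215 to 477 in sum in M0 libraries and 130 to 284 in M1, and markers of M1-like activation had 0 to 6 in M0 and 195 to 483 in M1. Lyz2, the lysozyme gene, led the macrophage list with a mean of 153.4 counts. With the strand setting of counting not known, a low count or a 0 under a marker symbol says little about which cells were present. T cell, fibroblast and NK cell markers were at 0 in every library, B cell markers summed to at most 4, and neutrophil markers had at most 3 counts per gene, with a sum of up to 4. Of 4 dendritic cell markers, Flt3 and Zbtb46 were at 0, and the list's sum was 6 to 19 in M0 and 325 to 434 in M1, mostly from Xcr1; its part in the members' changes was not tested. In bulk RNA, fewer cells of a type and less RNA per cell cannot be told apart.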

How the data were processed

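Polyadenylated RNA was sequenced from 12 cultures of mouse macrophages as strand-specific TruSeq libraries (NovaSeq, per the labels). The authors deposited whole-number counts per gene symbol and a table of log2 values, which by their values are log2(x + 1) of size-factor-scaled counts x. FastQC, HTSeq, DESeq2 and the mm10 genome are named in the submitters' processing notes without roles or versions, and the strand setting, aligner and annotation are not given in the sources used here. Groups and replicate numbers came from the sample titles, and columns were matched by the names in the descriptions. Where p-values are given they measure the spread between these cultures.

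The members, the gene lists and the tests were chosen with earlier results of these data known. Genes were kept by filterByExpr (minimum count 10, minimum total 15), which left 2356 genes with 97.6% of counts, scaled by TMM and fitted over all 12 libraries by group with edgeR 4.0.16 (R 4.3.3; glmQLFit, then glmQLFTest). Values of p were adjusted by Benjamini-Hochberg over all genes kept. Standard errors are the log2 fold change divided by the square root of F. The test was run on simulated counts first. Alternatives used DESeq2 1.42.0, limma 3.58.1 on the deposited log2 values, other filters, a replicate block and single libraries left out. Scaling by total counts, and counts of members at an unadjusted p under 0.05 in other settings, were added after seeing the data.

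Named members were the 8 largest increases and 8 largest decreases called in vehicle, the 5 with the most counts, the 4 nearest 0, the 2 smallest p-values in each ISRIB contrast, and members called in 1 polarization contrast alone. Other names, including the remaining members called in both and the pairs in which both genes passed, were chosen after their values were seen. Exons, strands and overlaps came from the GENCODE annotation of GRCm38, the build of mm10, which held 94 members (1 through an older symbol), and RefSeq tables of GRCm38.p6 gave the other neighbours. Promoter motif searches are not reported here. Depth was 439976 to 514037 counts per library, so genes with few counts, among them most neighbours, were measured with wide error.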

Additional observations from a re-analysis of the deposited data

How the results depend on the processing

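Among the 30 members named with values in every library, each with its log2 fold change in both treatments, 776 of 840 values under other settings kept their direction and their side of the threshold. Another 11 lost the call, 1 gained it and 52 changed sign, and every value that changed sign was one that had not been called. Counts of members called in M1 against M0 stayed within 1.5 times in every setting run. They were 51 to 63 in vehicle and 49 to 62 with ISRIB outside the runs that left out a library, and 50 to 55 in vehicle and 48 to 58 with ISRIB with single libraries left out. In ISRIB against vehicle in M0 the count was 3 with no filter on low counts and 0 to 1 with single libraries left out. In the interaction it was 2 with no filter and 1 with the replicate block. The cause was not tested. In ISRIB against vehicle in M1 it was 0 in every setting.

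The replicate block gave 56 members in vehicle, 60 with ISRIB and 0 in both ISRIB contrasts. Deviations of same-numbered libraries had correlations from -0.0600 to 0.113 in 12 pairs, 2 of them over 0.1, and 8 of 12 matched best with their own number. The library names ran in consecutive numbers within each replicate number, across all groups. Correlations this low can neither show nor exclude a pairing of the libraries. The main fit held no block, and with the block 4930539J05Rik passed in the interaction, as given above. Leaving out 0610039K10Rik changed the members' share of counts from 10.5% to 9.29% in vehicle M0, 8.96% to 8.50% in vehicle M1, 10.7% to 9.38% in ISRIB M0 and 8.79% to 8.30% in ISRIB M1, by construction.

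Sign changes concerned values near 0. In vehicle, DESeq2 size factors gave 0.0159 for 4930404N11Rik, 0.028 for 0610040F04Rik, 0.0214 for 2310068J16Rik and 0.0168 for E130317F20Rik. The DESeq2 Wald test gave 0.0159, 0.028, 0.0213 and 0.0171 for the same members. With limma on the deposited log2 values they were 0.0462, 0.1015, 0.0522 and 0.0505, and 4933428G20Rik was -0.024. With no filter 4933428G20Rik was -0.0744. A minimum mean of 50 counts gave 0.0083 for 0610040F04Rik and 0.0012 for 2310068J16Rik, and the block gave 0.0101 for 0610040F04Rik and -0.0111 for 4933428G20Rik. With ISRIB, 2310068J16Rik was 0.0084 under size factors, 0.0082 under the Wald test and 0.0459 under limma, where 4930414N06Rik was 0.0007. With total counts alone the values in vehicle were -0.1938 for 1110051M20Rik, -0.2907 for 4933428G20Rik, -0.174 for 4930581F22Rik and -0.1431 for 2610206C17Rik, and those with ISRIB were -0.1094 for 1110051M20Rik, -0.1965 for 0610040F04Rik, -0.1779 for E130317F20Rik and -0.0946 for 4930539J05Rik.

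With single libraries left out, values in vehicle ran from -0.0771 to 0.0451 for 4930404N11Rik, -0.1929 to 0.1887 for 0610040F04Rik, -0.1356 to 0.1431 for 2310068J16Rik, -0.3963 to 0.3545 for 4933428G20Rik, -0.075 to 0.0809 for E130317F20Rik and -0.0269 to 0.3842 for 4930581F22Rik. With ISRIB they ran from -0.1012 to 0.1838 for 0610040F04Rik, -0.1849 to 0.1436 for 2310068J16Rik, -0.1722 to 0.0428 for 4930414N06Rik and -0.0522 to 0.3945 for 4930539J05Rik. A530088E08Rik, called lower with ISRIB at an edgeR adjusted p of 0.0369, lost that call under size factors (0.0530), the Wald test, limma and no filter, and without ISRIB M0 replicate 3 or any ISRIB M1 replicate, with log2 fold changes from -0.6728 to -0.3249 when a library was left out.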
